A study of Mus musculus with 12 samples.

Results

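The genes described here encode the subunits of the proteasome, and their transcripts were followed in splenic CD4 T cells of mice with and without deletion of the transcription factor gene Ets1 in T cells. Members were all gene symbols of the form Psma, Psmb, Psmc, Psmd or Psme followed by a number, which gave 43 genes of the 24351 gene symbols listed across the 12 libraries. TFH cells (T follicular helper cells, which help B cells in germinal centres) had been sorted as CD4+CXCR5+PD-1+ and Non-TFH cells as CD4+CXCR5-PD-1-. All mice were C57BL/6 and carried Ets1 flox/flox. WT mice are labelled with no other allele, and cKO mice also carried CD4-cre, a Cre recombinase transgene that acts from the CD4-expressing stage of thymocyte development and therefore reaches CD4 and CD8 T cells alike. The 4 groups of 3 libraries each were WT Non-TFH, cKO Non-TFH, WT TFH and cKO TFH. The labels give no age or sex. They also do not state that the 3 replicates of a group were different mice, and if they were not, the p-values reflect technical spread only.

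The proteasome degrades proteins that have been marked with chains of ubiquitin. Its barrel-shaped 20S core is made of outer alpha rings and inner beta rings, and 3 of the beta subunits, encoded by Psmb5, Psmb6 and Psmb7, cut peptide bonds. Lymphocytes and cells exposed to interferon gamma replace these with the products of Psmb8, Psmb9 and Psmb10 and so assemble immunoproteasomes, which are known for producing peptides for presentation on MHC class I. The 19S regulatory particle, built from ATPases (Psmc genes) and non-ATPase subunits (most Psmd genes), binds ubiquitylated proteins, removes the ubiquitin and threads the protein into the core. The PA28 (Psme1, Psme2, Psme3) and PA200 (Psme4) activators are alternative caps. Subunit genes are known to be induced together by the transcription factor Nfe2l1 when proteasome capacity is short.

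Promoter sequences of a few members are shown because Ets1 binds DNA through the core letters GGAA, and because the members differ in which known control motifs lie next to their start sites. The sequences come from RefSeq (build GRCm38.p6), which gave a promoter for 36 of the 43 members (none for Psma8, Psmb1, Psmb2, Psmb7, Psmc3, Psmd3 and Psmd7). Each line gives the 120 bases just before the start of transcription, 5′ to 3′ on the gene's own strand. Capitals mark a match to 1 of 5 searched motifs on either strand. These were the ETS motif CCGGAAG, the antioxidant response element TGACNNNGC, the CCAAT box CCAAT, the interferon-stimulated response element, searched as GAAA, any 2 bases and GAAA, and the interferon gamma activated site TTCNNNGAA. The regions are chr12:100110082-100110201 on the plus strand for Psmc1, chr14:45329704-45329823 on the plus strand for Psmc6, chr11:107479408-107479527 on the plus strand for Psmd12, chr7:140882274-140882393 on the plus strand for Psmd13, chr14:54617996-54618115 on the minus strand for Psmb5 and chr17:34198075-34198194 on the plus strand for Psmb8.
Psmc1: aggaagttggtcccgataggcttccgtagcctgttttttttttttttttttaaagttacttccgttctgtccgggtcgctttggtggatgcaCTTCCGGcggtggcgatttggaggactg
Psmc6: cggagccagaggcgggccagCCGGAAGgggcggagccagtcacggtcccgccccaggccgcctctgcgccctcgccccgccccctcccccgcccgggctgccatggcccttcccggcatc
Psmd12: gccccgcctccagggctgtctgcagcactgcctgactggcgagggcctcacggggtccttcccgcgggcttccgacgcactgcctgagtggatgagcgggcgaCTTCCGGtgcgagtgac
Psmd13: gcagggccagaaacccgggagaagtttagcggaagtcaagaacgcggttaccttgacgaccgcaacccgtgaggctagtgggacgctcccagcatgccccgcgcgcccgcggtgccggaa
Psmb5: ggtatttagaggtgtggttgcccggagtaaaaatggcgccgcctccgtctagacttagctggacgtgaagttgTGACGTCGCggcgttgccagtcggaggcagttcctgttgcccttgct
Psmb8: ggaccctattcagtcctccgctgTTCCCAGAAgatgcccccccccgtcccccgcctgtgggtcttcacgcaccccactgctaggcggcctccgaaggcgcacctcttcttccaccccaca
With -1 as the base just before the start, the ETS letters begin at position -28 in Psmc1, -100 in Psmc6 and -17 in Psmd12. The antioxidant response element letters begin at -47 in Psmb5 and the interferon gamma activated site letters at -97 in Psmb8. The stretch of Psmd13 holds none of the 5 motifs as searched, although the core letters GGAA do occur in it. It ends in CCGGAA, all but the last letter of the ETS motif, and matches running past the start were not searched.

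Over the 250 bases before the start, the ETS letters were found in 11 of the 36 members (30.6%), against 7.83% of 27025 genes with a RefSeq promoter and 16.6% of the 8913 promoters of tested genes. The 11 members were Psma6, Psmc1, Psmc2, Psmc6, Psmd2, Psmd4, Psmd6, Psmd11, Psmd12, Psme3 and Psme4. Where RefSeq gave more than 1 start for a gene, a match at any of them counted. Psma6 matched only at the start that lies further into the gene. By role, the match was in 1 of 15 genes of the 20S core, 8 of 17 genes of the 19S particle and 2 of 4 activator genes. The antioxidant response element letters were in 5 members (Psmb5, Psmb6, Psmc6, Psmd9 and Psmd12), or 13.9% against 11.5% of all promoters and 14.2% of those of tested genes. CCAAT was in 14 members (38.9% against 37.5% and 40.6%), the interferon-stimulated response element in 3 (Psmb3, Psmd4 and Psmd9, 8.33% against 3.46% and 3.43%) and the interferon gamma activated site in 1 (Psmb8, 2.78% against 8.13% and 7.45%). These are matches of letters and not measured binding sites. No match to one motif shared letters with a match to another in the members.

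All levels below are FPKM (fragments per kilobase of transcript, relative to the total fragments of the library), put on a common scale by median ratios over 7083 features, so levels of different genes can be compared per length. Estimated depth was 11.9 M to 15.5 M fragments per library. The level of Ets1 itself was not lower in cKO cells. It was 413, 413 and 404 in WT Non-TFH, 415, 411 and 382 in cKO Non-TFH, 171, 204 and 215 in WT TFH and 224, 271 and 266 in cKO TFH libraries. The change was -0.027 ± 0.099 SE, limma adjusted p = 0.91 in Non-TFH and 0.37 ± 0.099 SE, limma adjusted p = 0.015 in TFH cells. A gene-level value can include exons outside the floxed segment, so it does not check the deletion. The 7 T cell markers with a value stood at 117.8 FPKM or more in every library, and all 9 TFH markers were higher in TFH than in Non-TFH cells in both genotypes. Markers of other cells were present. Over 14 macrophage and monocyte genes the summed level was 273 to 286 in WT Non-TFH, 337 to 342 in cKO Non-TFH, 1417 to 2489 in WT TFH and 549 to 643 in cKO TFH libraries. The Y-linked Ddx3y was listed at 0 in all 3 cKO TFH libraries, at 33.5, 2.22 and 5.28 in WT TFH, at 41.8, 44.8 and 40.6 in cKO Non-TFH and at 68.4 and 52.1 in WT Non-TFH replicates 2 and 3. The library of WT Non-TFH replicate 1 lacks most genes of the X and Y chromosomes. Y-linked transcripts thus differed between the groups compared, and their part in the differences below was not tested.

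Of the 43 members, 41 reached 1 FPKM in at least 3 libraries and were tested with limma on log2(scaled FPKM + 1) among 11099 features, each a gene or several overlapping genes listed together. The testis-type alpha subunit Psma8 and Psmb11, the catalytic subunit of the thymoproteasome of thymic cortical epithelium, did not. Psma8 was at 0, 0.0443 and 0 FPKM in WT Non-TFH, 0.133, 0.0465 and 0.0471 in cKO Non-TFH, 0.563, 0.246 and 0 in WT TFH and 0.699, 0 and 0.0364 in cKO TFH libraries. Psmb11 was at 0.11, 0.119 and 0.107 in WT Non-TFH, 0.0934, 0.102 and 0.13 in cKO Non-TFH, 0.0606, 0.12 and 0.0607 in WT TFH and 0.032, 0.0791 and 0.0548 in cKO TFH libraries. In single libraries 3 members had no value of their own. Psmb8 was merged with its neighbour Tap1 in WT Non-TFH replicate 3 and WT TFH replicate 2, Psmd11 was merged with Cdk5r1 in cKO TFH replicate 1, and the X-linked Psmd10 was missing in WT Non-TFH replicate 1. Psmb9 was listed at exactly 0 in WT Non-TFH replicate 3, the library in which Psmb8 and Tap1, its neighbours, were merged. Psmb5 shares its entry with Mir686, Psmb10 with Ctrl and Psme3 with Aoc2. RefSeq also lists near-identical copies of Psma5, Psmb5, Psmb6, Psmb7 and Psme2, and how reads shared with such copies were assigned is not given in the sources used here.

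Proteasome subunit transcripts were higher in TFH cells than in Non-TFH cells in both genotypes. In WT mice 35 of the 41 tested members were higher and 1 was lower in TFH cells at an adjusted p under 0.05, against 35.2% of all features higher and 32.3% lower. In cKO mice 37 were higher and 1 was lower, against 33.4% and 33.7% of all features. The median log2 change of the members was 0.99 in WT and 1.28 in cKO mice, beside 0.048 and 0.015 over all features. In each genotype every TFH library with a value lay above every Non-TFH library for 38 of the 41 tested members and below them for 1. Over all features the groups lay apart in these directions for 37.1% and 34.8% in WT and for 36.8% and 36.9% in cKO mice. The lower member was Psme4, the PA200 activator, in both genotypes. The summed level of the 40 members with a value in every library was 2869 to 2923 in WT Non-TFH and 5693 to 6154 in WT TFH libraries, and 3224 to 3399.9 in cKO Non-TFH and 7232 to 7879 in cKO TFH libraries. None of these ranges overlapped. In sorted bulk samples a different share of cells of a type and a different amount of RNA per cell cannot be told apart.

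Cycling genes and markers of other cells moved in the same comparisons. All 12 cycling markers were higher in TFH cells in both genotypes, and the summed level of 10 of them was 59.6 to 64.7 in WT Non-TFH, 92.1 to 106 in cKO Non-TFH, 311 to 468 in WT TFH and 635 to 780.0 in cKO TFH libraries. Of 16 macrophage markers, 14 were higher and 1 lower in WT TFH than in WT Non-TFH cells, and 12 were higher and 0 lower in cKO TFH than in cKO Non-TFH cells. Of 5 tested dendritic cell markers 5 were higher in WT TFH and 2 in cKO TFH cells, with a summed level over all 7 of 0.763 to 2.25 in WT Non-TFH and 2.67 to 3.86 in cKO Non-TFH libraries, beside 24.4 to 35.9 and 6.44 to 14.6 in the TFH libraries. Of 10 tested B cell markers 9 were higher and 1 lower in TFH cells in each genotype. The summed level of all 12 was 708 to 752 in WT Non-TFH, 418 to 457 in cKO Non-TFH, 271 to 301 in WT TFH and 129 to 156 in cKO TFH libraries. Most of that sum was Cd79a, the lower marker, at 750.2, 707 and 721 in WT Non-TFH and 190.4, 199 and 221 in WT TFH libraries, a difference that did not pass in WT when libraries were scaled to ribosomal protein genes. Their part in the subunit differences was not tested.

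**Figure D1:**
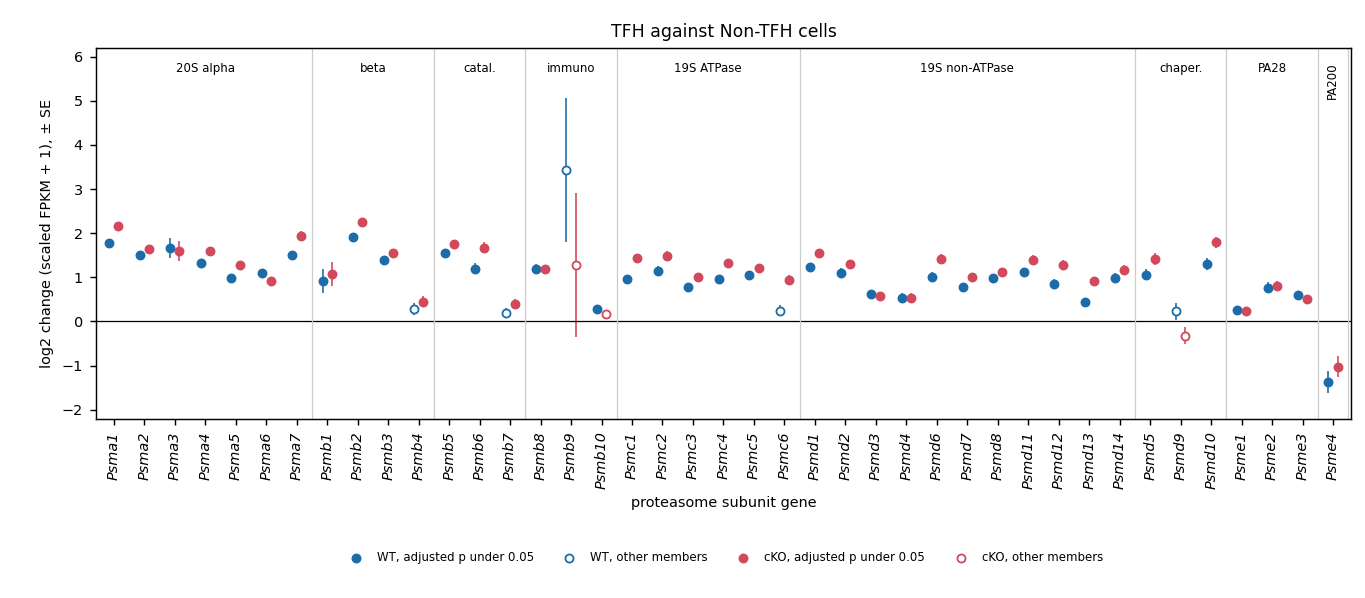
Log2 change (log2 of scaled FPKM + 1) of the 41 tested proteasome subunit genes between TFH and Non-TFH cells, with standard errors, in WT (blue) and cKO (red) mice, 3 libraries per group, ordered by role. Filled points have an adjusted p under 0.05: 35 higher and 1 lower in WT and 37 higher and 1 lower in cKO, while under quantile normalization Psmb4, Psmb10 and Psme1 turn negative in both and Psmb7 in WT, and under scaling to ribosomal protein genes Psme4 turns positive in WT and Psmd9 in cKO. The wide bar of Psmb9 comes with 1 WT Non-TFH library listed at 0.

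Within TFH cells, subunit transcripts were higher in cKO than in WT libraries under every scaling tried except that to ribosomal protein genes. Of the 41 tested members 25 rose and 0 fell (limma, adjusted p under 0.05), against 15.8% of features higher and 15.1% lower, and 30 had every cKO library above every WT library and 0 below, against 20.1% and 17.8% of features. No member had a negative change at an unadjusted p under 0.05 either, against 2160 of the 11099 features. The median change was 0.41 against 0.037 over all features, and single changes ran from -0.07 (Psmd3) to 0.71 (Psma7). In Non-TFH cells 8 members rose and 1 fell, against 11.8% and 8.57% of features, and the median was 0.14 beside 0.032. The 8 were Psma6, Psmb5, Psmb8, Psmb10, Psmc4, Psmc5, Psmd9 and Psme1, and the 1 was Psmc1. The higher count was 5 without WT Non-TFH replicate 3 or without cKO Non-TFH replicate 1. For 16 tested members the cKO Non-TFH libraries lay above and for 3 below the WT ones, against 29.0% and 23.2% of features.

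The count in TFH cells depended on how libraries were put on a common scale. In the alternatives planned at the outset, 11 of the 25 passed throughout, and the other 14 (Psma1, Psmb2, Psmb3, Psmb4, Psmb6, Psmb7, Psmb8, Psmc2, Psmd2, Psmd6, Psmd7, Psmd8, Psmd10 and Psme1) lost the call in at least 1. In Non-TFH cells the call was lost in at least 1 for Psmb8, Psmb10, Psmc1, Psmc4, Psmc5 and Psme1. The TFH count was 13 higher and 0 lower with quantile normalization and 16 higher with only the TFH libraries in the fit. Scaling by the summed level of ribosomal protein genes, an alternative chosen after the data were seen, gave 1 higher and 3 lower in TFH cells and 36 higher and 0 lower in Non-TFH cells. That scaling also moved the median change of all features, to -0.30 in TFH and 0.41 in Non-TFH cells. Under it the TFH changes of 7 members that passed under one scaling or the other turned negative (Psmb3, Psmb8, Psmd2, Psmd4, Psmd8, Psme1 and Psme3). Relative to that median the members stayed higher in cKO TFH cells by 0.33 and in cKO Non-TFH cells by 0.21.

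Other genes moved beside the genotype differences. Of 16 macrophage markers 13 were lower and 3 (Cd68, Itgam and Lyz2) higher in cKO TFH cells. Csf1r, the receptor of a macrophage growth factor, was at 134, 188 and 137 in WT TFH and 20.02, 17.1 and 21.0 in cKO TFH libraries. Of 12 cycling markers 7 were higher and 0 lower in cKO cells in each cell type. Of 9 TFH markers 6 were higher and 1 lower in cKO TFH cells. Over all features 15.8% were higher and 15.1% lower in cKO TFH cells, and 11.8% and 8.57% in cKO Non-TFH cells. Both CD8 T cell markers were higher in cKO TFH cells. Cd8a was at 2.01, 1.44 and 1.44 in WT TFH and 4.12, 2.86 and 2.71 in cKO TFH libraries, and Cd8b1 at 10.3, 8.86 and 6.13 and 34.0, 41.7 and 44.3. Of 5 tested dendritic cell markers 2 were lower in cKO TFH cells, and the summed level of all 7 was 24.4 to 35.9 in WT TFH and 6.44 to 14.6 in cKO TFH libraries. Markers also moved with genotype in Non-TFH cells, where Cd8b1 was at 14.7, 10.9 and 9.92 in WT and 102, 107 and 96.2 in cKO libraries, Cd8a was at or under 0.31 in all 6, and 6 of 16 macrophage markers were higher in cKO libraries. The Y-linked transcripts differed between these libraries as given above. In WT TFH replicate 1, the WT TFH library with the most Ddx3y, the members summed to 6154 FPKM, beside 5792 and 5693 in the other WT TFH libraries. With 1 such library, and Ddx3y listed at 0 in every cKO TFH library, Y-linked transcripts and genotype cannot be told apart here. The part of these differences in the subunit values was not tested.

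**Figure D2:**
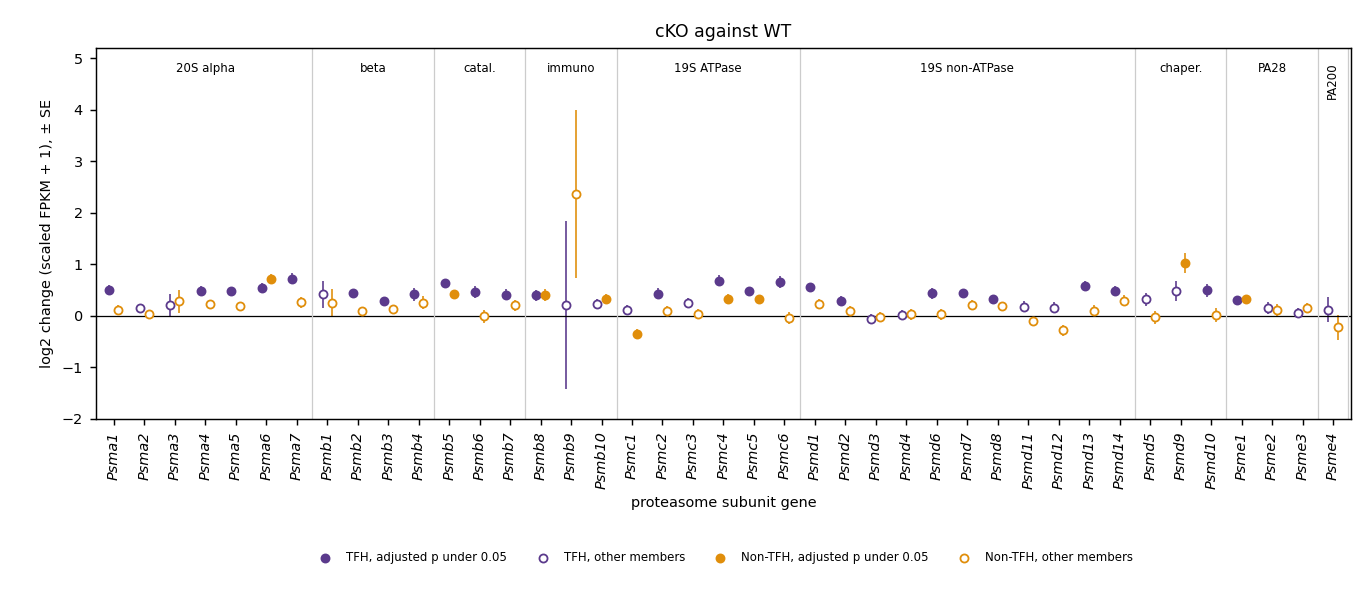
Log2 change (log2 of scaled FPKM + 1) of the same 41 genes between cKO and WT libraries, with standard errors, in TFH (purple) and Non-TFH (orange) cells, 3 libraries per group. Filled points have an adjusted p under 0.05: 25 higher in TFH cells, and 8 higher and 1 lower in Non-TFH cells, counts that become 1 higher and 3 lower, and 36 higher and 0 lower, when libraries are scaled to ribosomal protein genes.

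**Figure D3:**
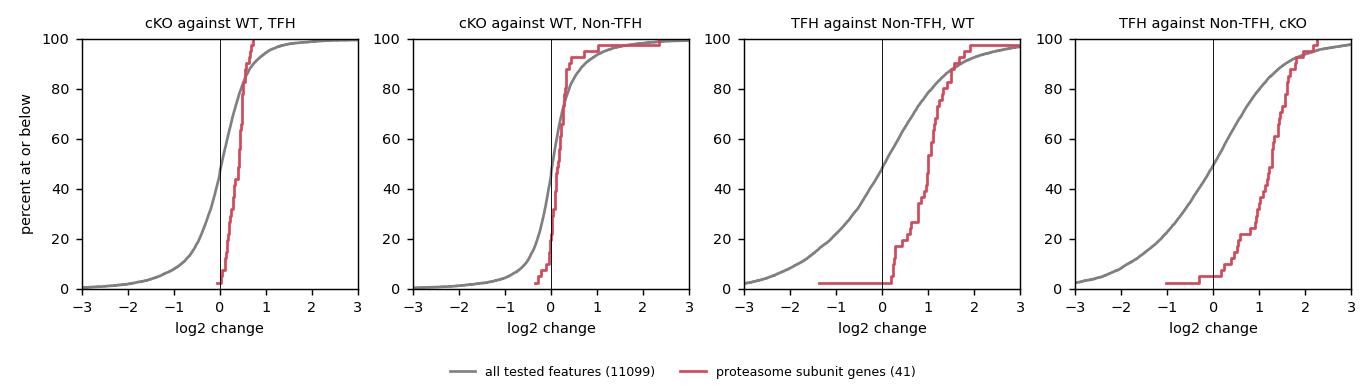
Cumulative share (percent of features at or below a log2 change) of the 41 tested members (red) and of all 11099 tested features (grey) in the 4 comparisons. The member curve reaches 50 percent near the member medians of 0.41, 0.14, 0.99 and 1.28, from left to right, and 1 value, Psmb9 in WT mice at 3.44, lies outside the axis range of -3 to 3.

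The alpha ring forms the outer gate of the core. All 7 tested alpha genes (Psma1 to Psma7) were higher in TFH cells in both genotypes, with changes of 0.99 to 1.78 in WT and 0.92 to 2.17 in cKO mice. In cKO against WT, 5 of 7 rose in TFH cells and 1 of 7 in Non-TFH cells. Psma1 stood at 55.7, 58.2 and 59.5 in WT Non-TFH, 63.1, 65.3 and 58.5 in cKO Non-TFH, 200.1, 190.0 and 215 in WT TFH and 314, 290.2 and 251 in cKO TFH libraries. Every TFH library was above every Non-TFH library, and every cKO TFH library above every WT TFH library. The TFH level was 3.49 times the Non-TFH level in WT (log2 change 1.78 ± 0.094 SE, limma adjusted p = 1.6e-08) and 4.58 times in cKO mice (2.17 ± 0.094 SE, limma adjusted p = 4.4e-09).

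Psma7 had the greatest rise of any member in cKO TFH cells. It was at 267, 275 and 229 in WT TFH and 373, 414 and 484 in cKO TFH libraries, which did not overlap (1.65-fold, log2 change 0.71 ± 0.11 SE, limma adjusted p = 4.3e-04). In Non-TFH cells the values were 89.3, 97.3 and 84.6 in WT and 114, 108 and 103 in cKO mice, also without overlap, at a log2 change of 0.26 ± 0.11 SE, limma adjusted p = 0.11. Psma6 rose in both cell types. It went from 96.8, 108 and 95.6 in WT to 169, 169 and 158 in cKO Non-TFH libraries (1.65-fold, 0.72 ± 0.083 SE, limma adjusted p = 6.7e-05) and from 228, 206 and 212 to 296, 306 and 343 in TFH libraries (1.46-fold, 0.55 ± 0.083 SE, limma adjusted p = 4.6e-04). Psma3 varied widely within the Non-TFH groups, at 77.3, 79.0 and 125 in WT Non-TFH and 82.2, 126 and 133 in cKO Non-TFH libraries. It reached 260.1, 353 and 276 in WT TFH and 321, 295 and 404 in cKO TFH libraries, higher than Non-TFH in WT (log2 change 1.67 ± 0.23 SE, limma adjusted p = 4.5e-05) and overlapping between genotypes. Psma2, the other alpha gene that did not pass in cKO TFH cells, had a mean of 376 ± 29.4 (SD, n = 3) in WT TFH and 417 ± 26.8 in cKO TFH cells (0.15 ± 0.085 SE, limma adjusted p = 0.21).

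Of the beta subunits without a catalytic site, Psmb2 had the highest TFH to Non-TFH ratio of any member with a value above 0 in every library. It stood at 66.4, 67.9 and 67.0 in WT Non-TFH, 74.1, 76.9 and 64.6 in cKO Non-TFH, 263, 258 and 247 in WT TFH and 321, 366 and 355 in cKO TFH libraries. The 3 libraries of each TFH group lay close together and far from the Non-TFH libraries, at 3.82-fold in WT (1.92 ± 0.083 SE, limma adjusted p = 4.1e-09) and 4.84-fold in cKO mice (2.26 ± 0.083 SE, limma adjusted p = 1.5e-09). Psmb2, Psmb3 and Psmb4 rose in cKO TFH cells by 0.44, 0.28 and 0.42 log2, and 0 of the 4 passed in Non-TFH cells (limma, 0 also at an unadjusted p under 0.05). At that unadjusted threshold 1963 of the 11099 features were higher and 1492 lower in Non-TFH cells. Psmb4, whose product joins the beta ring last, differed little between cell types, with a WT log2 change of 0.28 ± 0.13 SE, limma adjusted p = 0.069 and a cKO change of 0.45 ± 0.13 SE, limma adjusted p = 0.0081. With quantile normalization these turned to -0.11 and -0.054. Psmb1 varied within groups, from 108 to 223 FPKM in WT Non-TFH libraries, and its genotype change did not pass in either cell type.

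The constitutive catalytic genes Psmb5 (chymotrypsin-like activity), Psmb6 (caspase-like activity) and Psmb7 (trypsin-like activity) all rose in cKO TFH cells. Psmb5, whose promoter with the antioxidant response element letters is shown above, stood at 51.4, 56.8 and 52.8 in WT Non-TFH, 72.8, 69.1 and 75.5 in cKO Non-TFH, 171, 154 and 157 in WT TFH and 239.9, 257 and 249.8 in cKO TFH libraries. The 4 groups did not overlap at all, and they ranked WT Non-TFH, cKO Non-TFH, WT TFH, cKO TFH from low to high by these point values. The authors' deposited confidence interval of Psmb5, before scaling, ran from 0 to between 873.2 and 955 FPKM in 4 of the 6 Non-TFH libraries. The cKO level was 1.55 times the WT level in TFH cells (0.63 ± 0.077 SE, limma adjusted p = 9.8e-05) and 1.35 times in Non-TFH cells (0.43 ± 0.077 SE, limma adjusted p = 0.0019), and the TFH level was 2.99 times the Non-TFH level in WT mice (1.56 ± 0.077 SE, limma adjusted p = 1.0e-08). Psmb6 was at 64.4, 89.3 and 71.5 in WT Non-TFH, 75.0, 80.3 and 66.4 in cKO Non-TFH, 189, 169 and 158 in WT TFH and 244, 224 and 242 in cKO TFH libraries. Its Non-TFH groups overlapped, and its TFH groups did not (1.38-fold, 0.46 ± 0.12 SE, limma adjusted p = 0.014). Psmb7 was at 66.9, 57.6 and 62.9 in WT Non-TFH, 71.6, 75.4 and 68.6 in cKO Non-TFH, 72.8, 79.4 and 62.2 in WT TFH and 87.4, 91.1 and 106 in cKO TFH libraries. The cKO TFH libraries stood above all others for this gene. Psmb7 rose by 1.33-fold in cKO TFH cells (0.40 ± 0.11 SE, limma adjusted p = 0.016), while its TFH to Non-TFH change in WT mice was 0.19 ± 0.11 SE, limma adjusted p = 0.15.

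The 3 immunoproteasome catalytic genes did not move alike. Psmb8, which takes the place of Psmb5, stood at 227 and 224 in the 2 WT Non-TFH libraries with a value, 313, 285 and 295 in cKO Non-TFH, 512 and 520.2 in the 2 WT TFH libraries with a value and 582, 705 and 760.1 in cKO TFH libraries. No groups overlapped, and this gene had the highest level of any member in cKO TFH cells. The TFH level was 2.29 times the Non-TFH level in WT (1.19 ± 0.12 SE, limma adjusted p = 1.2e-05) and 2.29 times in cKO mice (1.18 ± 0.098 SE, limma adjusted p = 2.8e-06). Psmb8 rose with genotype in TFH cells (0.39 ± 0.11 SE, limma adjusted p = 0.022) and in Non-TFH cells (0.40 ± 0.11 SE, limma adjusted p = 0.028), with 2 libraries in each WT group. With the joint entry of Psmb8 and Tap1 given to each gene, these changes were 0.32 ± 0.21 SE, limma adjusted p = 0.3 and 0.10 ± 0.21 SE, limma adjusted p = 0.82, and with quantile normalization 0.19 ± 0.17 SE, limma adjusted p = 0.43 and 0.34 ± 0.17 SE, limma adjusted p = 0.21. Over 15 alternatives planned at the outset the call held in 7 in TFH cells (changes of 0.19 to 0.50) and in 8 in Non-TFH cells (0.10 to 0.49). Psmb10, which takes the place of Psmb7, was at 86.3, 83.2 and 78.8 in WT Non-TFH, 114, 98.6 and 101 in cKO Non-TFH, 108, 103 and 90.1 in WT TFH and 114, 114 and 124 in cKO TFH libraries. It rose in cKO Non-TFH cells (0.33 ± 0.093 SE, limma adjusted p = 0.026), the change in TFH cells was 0.22 ± 0.093 SE, limma adjusted p = 0.096, and the WT difference between cell types (0.28 ± 0.093 SE, limma adjusted p = 0.02) turned to -0.046 with quantile normalization.

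Psmb9, which takes the place of Psmb6, was at 166 and 145 and listed at 0 in WT Non-TFH libraries, at 171, 139.7 and 134 in cKO Non-TFH, 375, 298 and 275 in WT TFH and 371, 362 and 349 in cKO TFH libraries. All TFH libraries lay above all Non-TFH libraries. With the listed 0 kept, Psmb9 passed in no comparison at a standard error of 1.63. With it treated as missing, an alternative added after the data were seen, TFH cells were higher in WT mice by 1.01 ± 0.14 SE, limma adjusted p = 5.6e-05 and in cKO mice by 1.28 ± 0.13 SE, limma adjusted p = 2.9e-06. The genotype changes were then 0.20 ± 0.13 SE, limma adjusted p = 0.25 in TFH and -0.076 ± 0.14 SE, limma adjusted p = 0.79 in Non-TFH cells.

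**Figure D4:**
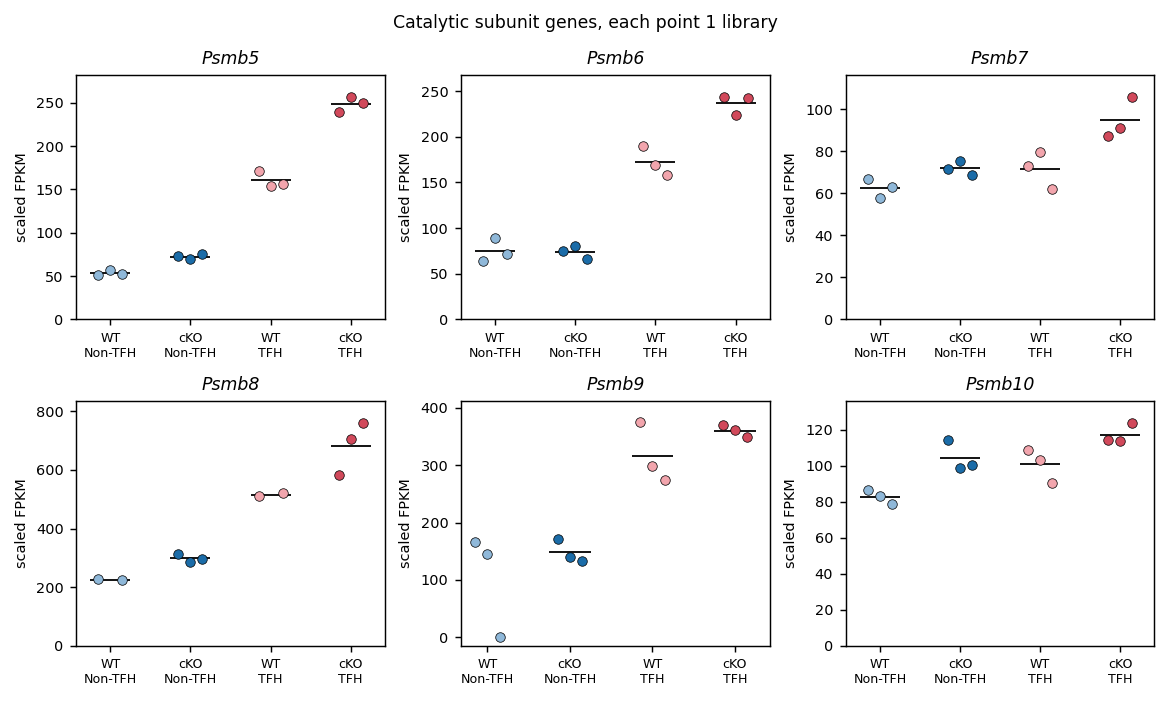
Level (scaled FPKM, linear axis) of the constitutive catalytic genes Psmb5, Psmb6 and Psmb7 (top) and of the immunoproteasome genes that replace each of them, Psmb8, Psmb9 and Psmb10 (bottom), in the 4 groups; each point is 1 library and the line is the mean. Psmb8 has 2 points in each WT group, and no mean is drawn for Psmb9 in WT Non-TFH cells, where 1 library is listed at 0.

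Each immunoproteasome gene was also set against the constitutive gene it replaces in the same library, a ratio that needs no scaling between libraries. Psmb8 to Psmb5 was 4.42 and 3.94 in WT Non-TFH, 4.30, 4.13 and 3.91 in cKO Non-TFH, 2.99 and 3.32 in WT TFH and 2.43, 2.74 and 3.04 in cKO TFH libraries. All TFH libraries lay below all Non-TFH libraries, and the genotypes overlapped within each cell type. These ratios use point values only, and the deposited interval of Psmb5 started at 0 in most Non-TFH libraries, as given above. Psmb9 to Psmb6 was 1.98, 1.76 and 1.74 in WT TFH and 1.52, 1.61 and 1.44 in cKO TFH libraries, and each cKO TFH library was below each WT TFH library. In Non-TFH libraries it was 2.29, 1.74 and 2.01 in cKO mice, and 2.58 and 1.63 in the 2 WT libraries where Psmb9 was not listed at 0. Psmb10 to Psmb7 was 1.29, 1.44 and 1.25 in WT Non-TFH, 1.59, 1.31 and 1.46 in cKO Non-TFH, 1.49, 1.30 and 1.45 in WT TFH and 1.30, 1.25 and 1.17 in cKO TFH libraries. Those ranges overlapped between most groups. The ratios were not tested.

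**Figure D5:**
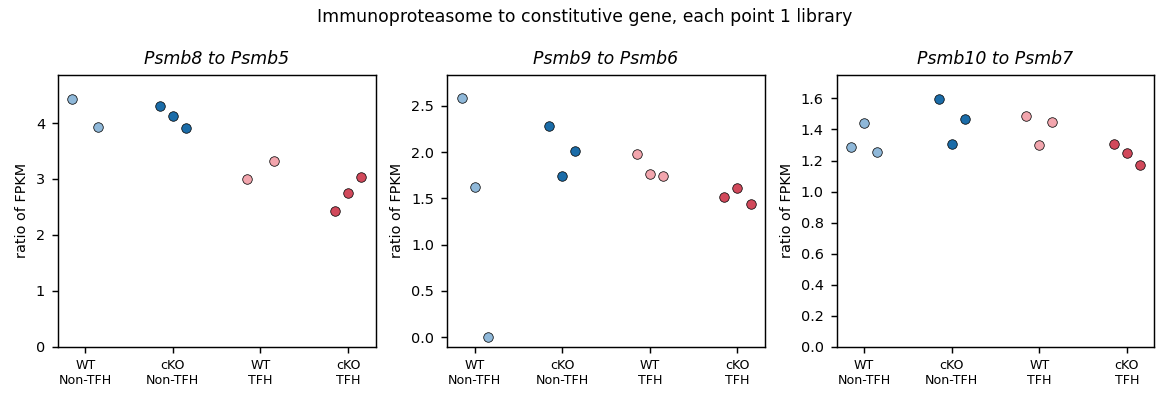
Ratio of the FPKM of each immunoproteasome gene to that of the constitutive gene it replaces (no unit), each point 1 library, in the 4 groups. Psmb8 to Psmb5 lies between 2.43 and 3.32 in TFH libraries and between 3.91 and 4.42 in Non-TFH libraries, and the ratio of 0 for Psmb9 to Psmb6 is the library in which Psmb9 is listed at 0. Psmb8 to Psmb5 has 2 points in each WT group, and all ratios use point values only.

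The 6 ATPases of the 19S particle unfold substrates and drive them into the core. In TFH against Non-TFH cells 5 of 6 were higher in WT and 6 of 6 in cKO mice, and 4 of 6 rose in cKO TFH cells. Psmc4 had the greatest rise of them in cKO TFH cells, from 109, 88.2 and 90.8 in WT to 141, 158 and 163 in cKO libraries (1.60-fold, 0.68 ± 0.10 SE, limma adjusted p = 4.3e-04). It was 45.5, 53.4 and 47.1 in WT Non-TFH and 60.6, 62.2 and 59.9 in cKO Non-TFH libraries, which did not overlap either (0.32 ± 0.10 SE, limma adjusted p = 0.045). Psmc5 rose in both cell types, by 0.47 in TFH and 0.31 in Non-TFH cells, and Psmc2 rose in TFH cells by 0.43. Psmc3 changed by 0.25 ± 0.093 SE, limma adjusted p = 0.06 in TFH cells.

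Psmc6 and Psmc1, whose promoters with the ETS letters are shown above, had genotype changes that differed between the cell types. They were 2 of 11 tested members with these letters, and 1 of 24 with a RefSeq promoter but no match passed as well. Psmc6 was at 54.1, 52.1 and 49.3 in WT Non-TFH, 51.3, 51.0 and 47.8 in cKO Non-TFH, 61.0, 66.2 and 57.8 in WT TFH and 119, 85.7 and 90.1 in cKO TFH libraries. The cKO TFH libraries stood above all others, and the Non-TFH groups overlapped. The cKO level in TFH cells was 1.59 times the WT level (0.65 ± 0.12 SE, limma adjusted p = 0.0015), and the Non-TFH change was -0.049 ± 0.12 SE, limma adjusted p = 0.85. The difference between these changes was 0.70 ± 0.17 SE, limma adjusted p = 0.013. Psmc1 was at 52.7, 52.6 and 55.7 in WT Non-TFH, 40.2, 46.9 and 38.6 in cKO Non-TFH, 99.8, 103 and 117 in WT TFH and 117, 111 and 117 in cKO TFH libraries. Here the cKO Non-TFH libraries lay below the WT ones and the TFH groups overlapped. Psmc1 fell in cKO Non-TFH cells (log2 change -0.35 ± 0.094 SE, limma adjusted p = 0.019), although this turned to 0.13 when libraries were scaled to ribosomal protein genes, and the TFH change was 0.11 ± 0.094 SE, limma adjusted p = 0.4, a difference of 0.47 ± 0.13 SE, limma adjusted p = 0.032. The fall in Non-TFH cells no longer passed without WT Non-TFH replicate 1 (-0.37), WT Non-TFH replicate 3 (-0.33), cKO Non-TFH replicate 1 (-0.33) or cKO Non-TFH replicate 3 (-0.30).

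Among the non-ATPase subunits all 11 were higher in TFH cells in both genotypes, and 7 rose in cKO TFH cells. In Non-TFH cells 0 passed (limma), where 3 were higher and 1 lower at an unadjusted p under 0.05 and changes ran from -0.28 to 0.29. At that unadjusted threshold 1963 of the 11099 features were higher and 1492 lower. The scaffold Psmd1 had a mean of 51.7 ± 3.50 (SD, n = 3) in WT TFH and 76.0 ± 5.16 in cKO TFH cells (0.55 ± 0.091 SE, limma adjusted p = 8.7e-04). Psmd14, the deubiquitinase that removes ubiquitin chains, had means of 96.4 ± 5.09 and 136 ± 21.1 (0.48 ± 0.11 SE, limma adjusted p = 0.005). The ubiquitin receptor Psmd4 was near the same level in both genotypes, at 119 ± 15.8 in WT TFH and 119.9 ± 10.9 in cKO TFH cells (0.017 ± 0.10 SE, limma adjusted p = 0.93). Psmd3 likewise had overlapping groups, at 61.0 ± 2.66 and 58.2 ± 5.27 (-0.07 ± 0.096 SE, limma adjusted p = 0.63). The other called genes of this role were Psmd2, Psmd6, Psmd7, Psmd8 and Psmd13, which rose by 0.28 to 0.57 log2. Psmd11 (with 2 cKO TFH libraries) and Psmd12 did not pass in TFH cells. Psmd12, a lid subunit whose promoter with the ETS letters is shown above, was at 40.3, 35.6 and 42.0 in WT Non-TFH, 33.1, 33.1 and 30.1 in cKO Non-TFH, 66.8, 70.7 and 77.4 in WT TFH and 90.3, 73.2 and 76.3 in cKO TFH libraries. Its genotype change was -0.28 ± 0.11 SE, limma adjusted p = 0.089 in Non-TFH and 0.15 ± 0.11 SE, limma adjusted p = 0.31 in TFH cells.

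Psmd13 was the third member whose genotype change differed between cell types. It was at 38.2, 42.9 and 39.2 in WT Non-TFH, 46.1, 43.2 and 39.8 in cKO Non-TFH, 58.7, 58.0 and 47.6 in WT TFH and 83.0, 79.1 and 83.0 in cKO TFH libraries. The cKO TFH libraries lay close together and above all others. In WT Non-TFH replicate 2 the authors' deposited interval of Psmd13 ran from 0 to 523 FPKM. The change was 0.57 ± 0.10 SE, limma adjusted p = 0.0013 in TFH and 0.099 ± 0.10 SE, limma adjusted p = 0.58 in Non-TFH cells, a difference of 0.48 ± 0.14 SE, limma adjusted p = 0.042. Over all members 3 of 41 differences passed, all toward a higher change in TFH cells, against 6.86% of features in that direction, and 0 toward a lower change against 10.6% (limma). At an unadjusted p under 0.05 the counts were 14 and 0, against 1446 and 1831 of the 11099 features. The median difference was 0.20 beside 0.0068 over all features. All 3 turned negative with scaling to ribosomal protein genes, which put the median feature at -0.74, Psmc1 at -0.39, Psmc6 at -0.15 and Psmd13 at -0.37. Psmc6 passed in all 20 alternatives planned at the outset, with differences of 0.56 to 0.79, while Psmc1 (0.40 to 0.55) and Psmd13 (0.38 to 0.53) each passed in 7 of the 20. The count was 1 with the replicate number as a block, and between 1 and 4 with single libraries left out, falling to 1 without WT Non-TFH replicate 2, without WT Non-TFH replicate 3 or without cKO Non-TFH replicate 3.

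Psmd5, Psmd9 and Psmd10 encode chaperones that help to assemble the base of the 19S particle and leave it before it is complete. Psmd10, also known as gankyrin, was at 13.4 and 15.0 in the 2 WT Non-TFH libraries with a value, 13.9, 14.8 and 14.0 in cKO Non-TFH, 31.9, 41.4 and 36.7 in WT TFH and 52.2, 46.0 and 57.9 in cKO TFH libraries. Its TFH groups stood apart from each other and from the Non-TFH groups. Its TFH level was 3.66 times the Non-TFH level in cKO mice (1.80 ± 0.12 SE, limma adjusted p = 3.4e-07) and rose in cKO TFH cells (0.49 ± 0.12 SE, limma adjusted p = 0.012). Psmd9 followed another order. It was at 11.1, 8.47 and 6.23 in WT Non-TFH, 17.3, 15.6 and 22.2 in cKO Non-TFH, 9.49, 10.0 and 10.6 in WT TFH and 12.9, 17.1 and 13.4 in cKO TFH libraries, so that cKO Non-TFH held the highest mean. This was the greatest called rise of any member in cKO Non-TFH cells (2.14-fold, 1.03 ± 0.19 SE, limma adjusted p = 0.0026). Psmd9 is 1 of the 3 tested members that did not pass between cell types in cKO mice, with Psmb9 and Psmb10 (-0.32 ± 0.19 SE, limma adjusted p = 0.16). Psmd5 was higher in TFH cells in both genotypes (1.06 and 1.41 log2) and changed with genotype by 0.32 ± 0.13 SE, limma adjusted p = 0.081 in TFH cells.

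The PA28 genes had a median change between cell types of 0.60 in WT and 0.50 in cKO mice, the lowest of the roles with more than 1 gene. Psme1, an interferon-inducible PA28 subunit, was at 307, 307 and 319.9 in WT Non-TFH, 398, 386 and 385 in cKO Non-TFH, 404, 374 and 348 in WT TFH and 472, 443 and 467 in cKO TFH libraries. Genotypes did not overlap within either cell type. Psme1 rose in cKO TFH (0.30 ± 0.068 SE, limma adjusted p = 0.0062) and in cKO Non-TFH cells (0.32 ± 0.068 SE, limma adjusted p = 0.005). With quantile normalization these became -0.00073 ± 0.068 SE, limma adjusted p = 1 and 0.16 ± 0.068 SE, limma adjusted p = 0.14. Its cell type change was 0.27 in WT and 0.24 in cKO mice and turned to -0.22 and -0.37 with quantile normalization. Psme2, its partner in the PA28 ring, was at 269, 317 and 259.7 in WT Non-TFH, 311, 299.6 and 296 in cKO Non-TFH, 563, 439.5 and 444 in WT TFH and 539.5, 459 and 598 in cKO TFH libraries. It was higher in TFH cells (0.77 ± 0.12 SE, limma adjusted p = 1.4e-04 in WT) with overlapping genotypes (0.14 ± 0.12 SE, limma adjusted p = 0.41 in TFH cells). Psme3, the nuclear PA28 gamma subunit, was at 49.7, 51.7 and 50.9 in WT Non-TFH, 62.0, 56.7 and 50.3 in cKO Non-TFH, 78.9, 73.8 and 79.7 in WT TFH and 81.4, 72.3 and 87.1 in cKO TFH libraries, again split by cell type (0.60 ± 0.098 SE, limma adjusted p = 1.9e-04 in WT) and not by genotype (0.047 ± 0.098 SE, limma adjusted p = 0.76 in TFH cells).

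Psme4, a large protein known for degrading acetylated histones, was the single member lower in TFH cells. It was at 17.9, 18.3 and 17.5 in WT Non-TFH, 14.7, 15.5 and 15.3 in cKO Non-TFH, 6.34, 4.35 and 8.99 in WT TFH and 9.73, 7.07 and 4.73 in cKO TFH libraries. All TFH libraries lay below all Non-TFH libraries. Psme4 was lower in TFH cells in WT (log2 change -1.37 ± 0.24 SE, limma adjusted p = 3.2e-04) and in cKO mice (-1.03 ± 0.24 SE, limma adjusted p = 0.0025), although the WT change turned to 0.26 when libraries were scaled to ribosomal protein genes, under which the median feature itself stood at 1.54. Between genotypes it did not pass in either cell type.

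Members with and without the ETS letters in the promoter were set side by side. In cKO TFH cells 5 of the 11 with a match rose, with a median change of 0.17, and 17 of the 24 tested members with a RefSeq promoter but no match rose, with a median of 0.47. Over all features 15.8% rose and 15.1% fell there. In cKO Non-TFH cells 1 of 11 rose and 1 fell with a match (median 0.023), and 7 of 24 rose and 0 fell without (median 0.24). The shares of all features were 11.8% and 8.57%, near those of the members with a match. Between cell types the groups were closer, with WT medians of 0.97 and 1.13 and cKO medians of 1.29 and 1.30. The genotype change differed between cell types for 2 of 11 with a match (median difference 0.34) and 1 of 24 without (median 0.18). All of these were toward a higher change in TFH cells, where 6.86% of all features passed. Features outside the members were not split by these letters. Most matches are in 19S genes. Among the 19S genes alone, 4 of 8 with a match rose in cKO TFH cells (median 0.23) and 7 of 9 without (median 0.48). In cKO Non-TFH cells 0 of these 8 rose and 1 fell (median -0.013), and 3 of 9 rose without a match (median 0.22). The difference was not tested.

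Genes around the proteasome were read from lists that were chosen, like the members, with earlier results of these data known. Of 7 assembly factors of the 20S core and its inhibitor, 6 were higher in TFH cells in both genotypes, and 3 (Psmg3, Psmg4 and Pomp) rose in cKO TFH cells, against 0 higher and 1 lower when libraries were scaled to ribosomal protein genes. Pomp, the chaperone that completes the core, was at 90.4, 93.1 and 90.4 in WT Non-TFH, 109, 97.2 and 109.7 in cKO Non-TFH, 273, 208 and 240.0 in WT TFH and 318, 352 and 381 in cKO TFH libraries, ranking the groups as Psmb5 did (0.55 ± 0.10 SE, limma adjusted p = 0.0022 in TFH cells). Psmg1 fell in cKO Non-TFH cells (log2 change -0.59 ± 0.14 SE, limma adjusted p = 0.011), and with the ribosomal scaling its change was -0.089 (limma adjusted p = 0.66). Akirin2, which brings proteasomes into the nucleus, was the gene of this list that was lower in TFH cells. It was listed at 0 in all 6 TFH libraries and at 28.8 and 31.4 in WT and 28.1, 28.6 and 26.1 in cKO Non-TFH libraries, and whether such a 0 is a measurement cannot be told from these tables.

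Of 9 further partners of the 19S particle, 6 were higher and 2 lower in TFH cells in each genotype, and in cKO TFH cells 2 rose and 1 fell, or 0 and 2 with the ribosomal scaling. The 2 that rose were Shfm1, a small lid subunit (0.55 ± 0.11 SE, limma adjusted p = 0.0029), and Uchl5, a deubiquitinase of the particle (0.50 ± 0.15 SE, limma adjusted p = 0.023). Zfand2a, a heat-inducible proteasome adaptor, fell by 1.002 log2 (SE 0.18, limma adjusted p = 0.0015). Ube3c, a ubiquitin ligase on the particle, was lower in TFH cells in WT (-1.39 ± 0.25 SE, limma adjusted p = 3.7e-04) as was Zfand5 (-1.35 ± 0.46 SE, limma adjusted p = 0.023). Neither was called lower with the ribosomal scaling, which put the median feature at 1.54 in WT. Under it 7 of the 9 partners were higher and 0 lower in TFH cells of WT mice.

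Among genes that control subunit transcription, 0 of 10 tested passed between genotypes in TFH and 0 in Non-TFH cells by limma (at an unadjusted p under 0.05, 1 was higher and 2 lower in TFH cells and 0 in Non-TFH cells, and with the ribosomal scaling 4 were lower in TFH and 4 higher in Non-TFH cells), with median changes of -0.31 and 0.081. At the unadjusted threshold 2446 of the 11099 features were higher and 2160 lower in TFH cells, and 1963 and 1492 in Non-TFH cells. Nfe2l1 was at 18.8, 18.4 and 17.4 in WT Non-TFH, 22.0, 20.8 and 21.9 in cKO Non-TFH, 20.9 and 18.0 in WT TFH and 18.2, 14.2 and 14.3 in cKO TFH libraries. The change was -0.31 ± 0.14 SE, limma adjusted p = 0.11 in TFH cells. Ddi2, the protease that activates Nfe2l1, was lower in TFH cells (-1.69 ± 0.20 SE, limma adjusted p = 1.4e-05 in WT), and Ngly1, which deglycosylates Nfe2l1, was higher (0.86 ± 0.14 SE, limma adjusted p = 2.0e-04). Nfya, a CCAAT-binding subunit, was lower in TFH cells in WT (-3.27 ± 0.24 SE, limma adjusted p = 2.2e-07). Of the 10 genes, 3 were higher and 2 lower in TFH cells of WT mice, a split that was 6 and 1 with the ribosomal scaling.

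The substrate side of the pathway moved in both directions. Of 7 tested ubiquitin and E1 genes, 3 rose and 2 fell in cKO TFH cells, or 0 and 3 with the ribosomal scaling. Rps27a, which encodes ubiquitin fused to a ribosomal protein, was lower in TFH cells of WT mice (-1.93 ± 0.087 SE, limma adjusted p = 5.4e-09) and rose in cKO TFH cells (0.26 ± 0.087 SE, limma adjusted p = 0.039). Neither call was made with the ribosomal scaling, under which 5 of the 7 genes were higher and 0 lower in TFH cells of WT mice. Of 15 genes of the p97 unfoldase complex and the shuttle factors that deliver ubiquitylated proteins, 3 were higher and 8 lower in TFH cells of WT mice, a split that was 7 and 7 without scaling and 8 and 4 with the ribosomal scaling. Vcp, p97 itself, listed together with Fancg, was among the higher (1.09 ± 0.071 SE, limma adjusted p = 8.9e-08). The shuttle factors Rad23b (-2.33 ± 0.16 SE, limma adjusted p = 1.1e-07) and Ubqln2 (-2.14 ± 0.17 SE, limma adjusted p = 1.2e-06) were among the lower. In cKO TFH cells 3 of 15 rose (1 rose and 1 fell with the ribosomal scaling), among them Rad23b (0.90 ± 0.16 SE, limma adjusted p = 0.0012).

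Of 10 genes that govern the immunoproteasome through interferon, 6 were lower in cKO TFH cells and 3 were higher in cKO Non-TFH cells. Under the other scalings 6 or 7 were lower in TFH cells. Ifng, which encodes interferon gamma, was at 66.2, 44.8 and 40.5 in WT TFH and 9.67, 11.8 and 9.94 in cKO TFH libraries, with no overlap (log2 change -2.14 ± 0.29 SE, limma adjusted p = 2.5e-04). Ifngr1, a chain of the interferon gamma receptor, fell in cKO TFH cells (-0.73 ± 0.17 SE, limma adjusted p = 0.0058) and rose in cKO Non-TFH cells (0.65 ± 0.17 SE, limma adjusted p = 0.016). Of 11 genes that load peptides onto MHC class I, 4 fell in cKO TFH cells, and 4 to 8 under the other scalings. Tap1, the transporter next to Psmb8 and Psmb9, was at 143 and 120.02 in the 2 WT TFH libraries with a value and at 92.9, 75.5 and 99.0 in cKO TFH libraries (-0.56 ± 0.15 SE, limma adjusted p = 0.02). Psmb8, merged with Tap1 in WT TFH replicate 2, rose in the same cells. That call of Psmb8 held in 7 of 15 alternatives planned at the outset and was lost when the joint entry was given to each gene. H2-K1, listed with H2-K2, fell in cKO TFH cells (-0.51 ± 0.082 SE, limma adjusted p = 6.6e-04), as did the joint entry of H2-D1 and other class I genes (-0.66 ± 0.081 SE, limma adjusted p = 9.6e-05) and Tapbp, listed with Zbtb22 (-0.28 ± 0.082 SE, limma adjusted p = 0.029).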

How the data were processed

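RNA-seq had been done on sorted splenic TFH and Non-TFH cells, 3 libraries in each of 4 groups. The deposited unit is FPKM per gene or locus from Cufflinks, 1 table per library, which the authors made with FastQC, cutadapt, TopHat2, Bowtie2, Cufflinks and Cuffdiff against mm10, per the submitters' processing notes. No versions are given in the sources used here.

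Entries were matched by symbol, with overlapping genes listed together kept as 1 joint feature, which gave 23304 features (22502 single symbols, 756 joint). A symbol counted as single if it had an entry of its own in at least 2 libraries of each group. Other symbols were joined with the genes listed with them, or kept alone where there were none. The fit needed a value in at least 1 library of each group, and 824 features lack one in WT Non-TFH replicate 1 alone. The 9 entries with a FAIL status were set to missing. Depth was estimated from the deposited FPKM and its upper confidence bound at unnamed loci longer than 1500 bases. The gap between them was taken to reflect only the number of fragments counted. The median estimate was 11.9 M to 15.5 M fragments per library. Because it is an estimate, no counting interval is given. Libraries were scaled by median ratios (factors 0.851 to 1.13). Tested features had 3 or more libraries at 1 FPKM or above. The test was limma 3.58.1 in R 4.3.3 on log2(FPKM + 1), with a variance trend, robust moderation, 1 fit over all 4 groups and Benjamini-Hochberg adjustment over 11099 features (threshold 0.05). A fold change on the log2(FPKM + 1) scale understates the change of low genes. Tables and figures used Python 3.11.15 with pandas 2.3.3, numpy 2.4.6 and matplotlib 3.10.9. The fit was tested on simulated data.

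Members and gene lists were chosen with earlier results of these data known. Values in every library are given for catalytic, activator and tissue-restricted subunits, Psmd10 and, in each comparison, the 4 members with the largest called change in each direction, the rest by role. Genes of the lists are those with the largest called changes, up to 3 per direction. A few list genes are not reported here by name. Nfe2l1 and some other list genes named with values that did not pass were chosen after their values were seen. Alternatives were the pseudocount, filter, scaling, weights, replicate block, joint entries, samples fitted and single libraries left out. Replicate numbers carry no stated pairing.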

Additional observations from a re-analysis of the deposited data

Results flagged for a closer look

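The change between cKO and WT libraries was compared between TFH and Non-TFH cells by a test of the difference itself (limma interaction), and 3 proteasome subunit genes passed. Psmc6 changed more in TFH than in Non-TFH cells by 0.70 log2, Psmd13 by 0.48 and Psmc1 by 0.47. In TFH cells the cKO libraries of Psmc6 and Psmd13 lay above the WT libraries. For Psmc1 the cKO libraries lay below the WT libraries in Non-TFH cells. The 3 are 7.32% of the 41 tested members, near the 6.86% of all tested features that passed in this direction. Psmc6 passed in 20 of 20 alternatives planned at the outset and Psmc1 and Psmd13 in 7 each, and all 3 turned negative when libraries were scaled to ribosomal protein genes.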

How the results depend on the processing

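The higher counts in TFH against Non-TFH cells kept to 34 to 37 members in WT and 37 in cKO mice with single libraries left out. Of the members called, 32 of 36 in WT, 31 of 38 in cKO, 11 of 25 in cKO TFH and 3 of 9 in cKO Non-TFH cells passed under every alternative planned at the outset. The cause of the changes below was not tested. In cKO against WT TFH cells the 25 higher members became 13 with quantile normalization and 16 with only the compared groups in the fit, and the features called went from 3421 to 2256 with array weights and 2162 with only those groups. In Non-TFH cells the 8 higher and 1 lower became 14 and 0 without scaling, 15 and 2 with array weights, and 13 and 3 with only the compared groups, while quantile normalization gave 2 lower. Features called there went from 2258 to 4115 with array weights and 3888 with only those groups. With single libraries left out, the Non-TFH counts were 5 to 7 higher and 0 to 1 lower, with 5 higher without WT Non-TFH replicate 3 or cKO Non-TFH replicate 1. The interaction count of 3 was 1 to 4 with single libraries left out, and 1 without scaling, with array weights or with quantile normalization, which also gave 1 lower. Quantile normalization gave 2 members lower in TFH cells in WT and 3 in cKO mice, with Psmb10 at -0.046 and -0.25 and Psme1 at -0.22 and -0.37, and put Psme1 at -0.00073 between genotypes in TFH cells. With joint entries given to each gene, the ratio of Psmb8 to Psmb5 was 5.43 in WT Non-TFH and 3.43 in WT TFH cells.

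With the replicate number as a block, the interaction count was 1, and the other counts were 24 higher in cKO TFH, 6 higher and 1 lower in cKO Non-TFH, 35 and 1 in WT and 37 and 1 in cKO mice. Same-numbered libraries of different groups correlated at -0.040 to 0.059 in their deviations from the group means over 9982 features, so the numbers were not taken to pair samples.

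Alternatives chosen after seeing the data were 3. Without variance trend and robust moderation the Non-TFH count was 5 higher and the interaction count 1. Treating listed zeros as missing changed no count of members by over 1.5 times. Scaling to ribosomal protein genes gave 1 higher and 3 lower in cKO TFH, 36 and 0 in cKO Non-TFH cells (4090 features called), 0 lower in TFH cells of either genotype against Non-TFH (0 in WT, 0 in cKO), and 0 higher and 29 lower in the interaction (5646 features called). It turned Psmb8 to -0.018, Psme1 to -0.086 and Psme3 to -0.33 in cKO TFH cells, Psmb6 to 0.47 and Psmc1 to 0.13 in cKO Non-TFH cells, and Psme4 to 0.26 in TFH against Non-TFH cells of WT mice. In the interaction it put Psmb5 at -0.65, Psmb7 at -0.65, Psmc1 at -0.39, Psmc6 at -0.15, Psmd13 at -0.37 and Psme2 at -0.83. The number of 3 libraries per group and the estimated values of Cufflinks, which lists some expressed genes at 0, limit all of these results.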
